A study of Homo sapiens with 12 samples.

Results

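The genes described here are 39 genes of the unfolded protein response and the integrated stress response. They were picked out by symbol from the 60664 genes in the table of the series. The list of symbols was drawn up with earlier results of these data known. All 39 passed the filter on low counts in each comparison. Of these, 4 are the sensors of the endoplasmic reticulum (ER) and XBP1, 16 are ATF4 and genes it is known to act on, 15 are ER chaperones and folding enzymes, and 4 are factors of ER-associated degradation (ERAD). RNA was sequenced from MDA-MB-231, an established human line of triple-negative breast cancer cells, in 12 libraries. Of these, 4 were untreated wild type (WT) cells in normoxia, 4 were WT cells held for 24 hr in hypoxia, which the study's methods give as 1% oxygen, and 4 were untreated CCAR2-/- cells in normoxia, called CCAR2 KO here. The CCAR2 KO cells came from infection with a lentivirus carrying Cas9 and a guide, and the sources used here do not say whether they are 1 clone. The libraries hold no CCAR2 KO cells in hypoxia, so whether the loss of CCAR2 alters the response to hypoxia cannot be had from these libraries.

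When unfolded proteins build up in the ER, the chaperone HSPA5 leaves 3 kinds of sensor in the ER membrane. IRE1, the product of ERN1, splices the mRNA of XBP1 so that it encodes a transcription factor, and ATF6 is cut to release another, and both act on genes of chaperones and of ERAD. PERK, the product of EIF2AK3, phosphorylates the translation factor eIF2, which lowers protein synthesis in general but raises the translation of ATF4 mRNA. Because other kinases that sense amino acid shortage, viral RNA or heme shortage phosphorylate eIF2 too, the ATF4 branch is also called the integrated stress response. Translation, phosphorylation, splicing and cleavage are not seen in counts of mRNA per gene.

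The promoters are shown first, because short sequence elements are how XBP1, ATF6 and ATF4 are known to recognise their genes. RefSeq promoter windows, each 300 bases long, with 250 before the start site, were given for 34 of the 39 members. The ER stress response element (ERSE), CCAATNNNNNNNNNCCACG, searched on both strands, was found in 8 of these 34 members (23.5%) and in 25 of all 27167 genes with a window (0.092%, these members included). The variant ERSE-II, ATTGGNCCACG, was found in 3 members (8.82%) and in 19 of all genes (0.0699%). An XBP1 element, TGACGTGG, lay in 1 member (2.94%), HYOU1, where it overlaps an ERSE-II, against 0.928% of all genes. The C/EBP-ATF response element (CARE) bound by ATF4, written as TGATGNAA, was found in 3 members (8.82%) and in 4.47% of all genes. The elements were taken as known ones of this response, and the members as known genes of it. A higher share among members than among all genes was therefore likely from the start and is no result of these data. A match is a run of letters in this window and was not shown to be bound.

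Matches of each kind of element are printed for members whose levels are described below, 5′ to 3′ along the gene, from RefSeq on GRCh38.p14. The matched bases are in capitals, with 5 bases on either side in lower case. HSPA5, HSP90B1, CALR, PDIA6 and XBP1 hold an ERSE, HYOU1 an ERSE-II with the XBP1 element running into it, HERPUD1 an ERSE-II, and CHAC1 and ASNS a CARE. In CALR, HYOU1 and CHAC1 the ERSE, ERSE-II or CARE runs against the gene, so its reverse complement is read.
HSPA5, chr9:125241386-125241414, minus strand: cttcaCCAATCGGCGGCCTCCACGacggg
HSP90B1, chr12:103930211-103930239, plus strand: cctgaCCAATCGGAAGGAGCCACGcttcg
CALR, chr19:12938379-12938407, plus strand: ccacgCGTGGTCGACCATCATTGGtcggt
PDIA6, chr2:10812848-10812876, minus strand: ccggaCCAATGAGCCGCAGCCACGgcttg
XBP1, chr22:28800598-28800626, minus strand: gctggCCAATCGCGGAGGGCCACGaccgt
HYOU1, chr11:119057375-119057398, minus strand: ccccgTGACGTGGTCCAATcccag
HERPUD1, chr16:56932020-56932040, plus strand: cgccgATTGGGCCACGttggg
CHAC1, chr15:40953257-40953274, plus strand: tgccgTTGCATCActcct
ASNS, chr7:97872464-97872481, minus strand: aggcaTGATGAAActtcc
All matches lay upstream of the start site (in the map of motif positions), the ERSE of XBP1 the nearest, from -52 to -34, and that of ERO1B the farthest, from -243 to -225. HSP90B1 and HYOU1 held 2 matches each to an ERSE or ERSE-II, and HERPUD1 held an ERSE-II and a CARE. Of the 14 chaperones with a window, 7 held an ERSE and 2 an ERSE-II, while none of the 12 members with a window among ATF4 and its targets held either.

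Levels are given in CPM, estimated counts scaled to a library size of 1000000 after TMM normalization, for libraries 1 to 4 of a group in that order. The sum of estimated counts lay between 68599412 and 213743693 per library. Groups were compared with edgeR's quasi-likelihood test, with p-values adjusted by Benjamini and Hochberg over all genes tested, and a call needed both an adjusted p under 0.05 and a log2 fold change of at least 0.5 in size, the thresholds of the study. Counts at the adjusted p alone are given beside it, because most of the differences described here were smaller than that fold. Nothing in the labels says that the libraries came from separate cultures, so p-values measure the spread between these libraries, which may be technical. The paper's methods speak of biological replicates, but in numbers that differ from the 4 libraries per group here. As checks of the labels, CCAR2 stood at 144 to 151 CPM in WT normoxia, 143 to 154 CPM in WT hypoxia and 54.7 to 61.3 CPM in CCAR2 KO, and the hypoxia target CA9 at 0.0389 to 0.0948, 4.43 to 5.4 and 0.0717 to 0.195 CPM. All 5 hypoxia targets checked, CA9 among them, were called higher in WT hypoxia, with log2 fold changes of 0.52 to 6.21. In CCAR2 KO the list went both ways, as VEGFA was called higher (log2 fold change of 0.86, SE 0.056, adjusted p = 3.15e-07) and ADM lower, at 16.9 to 18.1 CPM against 32.6 to 36.4 CPM in WT normoxia (edgeR adjusted p = 9.7e-08). Of markers of the cell line, VIM stood at 4408 to 5397 CPM over the 12 libraries, and ESR1, PGR and CDH1 at no more than 0.47 CPM. Of the other 2 genes listed as low or absent in this line, ERBB2, which this line carries without amplification, stood at 88.8 to 107 CPM, and EPCAM, an epithelial adhesion molecule, at 11.7 to 17.9 CPM, so EPCAM mRNA was present in every library. Of 9 markers of leukocytes, endothelium and fibroblasts, 7 stayed under 2 CPM in every library, PTPRC, CD3E, CDH5 and DCN among them at no more than 0.255 CPM. The summed level of the 9 was 17.4 to 20.2 CPM in WT normoxia, 18.4 to 22.9 CPM in WT hypoxia and 26.6 to 30.7 CPM in CCAR2 KO, mostly from COL1A1 and PECAM1, which were called higher in CCAR2 KO with CD14 and PDGFRB, and the part of this in the results below was not tested. WT hypoxia library 2 stood farthest from its group over the members, by a median of 0.16 in log2 CPM against 0.035 to 0.12 for the other 11 libraries. The hypoxia counts of members and the folds of STC2 and SEC61G are also given without it. The folds of ATF4, DDIT3, XBP1 and PSPH are given only with it.

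Per length of exon, the members spanned more than 3 orders of magnitude in WT normoxia (in the plot of levels per length). CALR, a calcium-binding chaperone of glycoproteins, was the highest at 357 ± 14.5 CPM per kb of exon (SD, n = 4), followed by HSPA5 (227 ± 9.69), HSP90B1 (158 ± 7.6) and ATF4 (148 ± 5.5). The last 2 of these were within their spread of each other. Among the enzymes, PSAT1 (97.1 ± 3.69 CPM per kb) and SHMT2 (88.2 ± 3.93 CPM per kb) led. The sensors were low, with ATF6 at 11.1 ± 0.775, EIF2AK3 at 2.04 ± 0.118 and ERN1 at 1.06 ± 0.0858 CPM per kb. STC2, NUPR1 and ALDH1L2 were the lowest, and ALDH1L2 stood at 0.083 ± 0.00506 CPM per kb.

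Between WT hypoxia and WT normoxia few members differed past the fold of the call. Of the 39, 1 gene, VLDLR, was called higher (5.83% of all 21776 genes tested were) and none was called lower (1.43% of all genes). At the adjusted p alone, 3 members, VLDLR, PHGDH and ERO1A, were higher, against 11.6% of all genes, and 11 were lower, against 12%. The 11 were ATF6, ATF4, DDIT3, TRIB3, CHAC1, PSAT1, PSPH, MTHFD2, DNAJC3, CANX and HYOU1, with log2 fold changes between -0.38 and -0.19. The median log2 fold change was -0.042 over the 39 members and 0.011 over all genes tested, and the first turned to 0.0092 with upper-quartile normalization, under which 6 members in place of 11 were lower. Without WT hypoxia library 2, 14 members were lower and 4 higher at the adjusted p alone, and STC2 was called as well, while without WT normoxia library 2 or 4 or hypoxia library 1 the number lower was 5, and without WT normoxia library 3 or hypoxia library 3 or 4 it was 6. By class, the median was -0.20 over the sensors and XBP1, -0.085 over ATF4 and its targets, -0.035 over the chaperones, which turned to 0.015 with upper-quartile normalization, and 0.01 over the ERAD factors, which turned to -0.013 without WT normoxia library 3.

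In CCAR2 KO, 10 of 15 chaperones and folding enzymes and all 4 ERAD factors were higher than in WT normoxia at the adjusted p alone, while ATF4, PPP1R15A and 3 enzymes were lower. The members called higher were NUPR1, CHAC1, DNAJB9 and PDIA4 (6.73% of all 21410 genes tested were), and PSAT1 was called lower (2.94%). At the adjusted p alone, 19 of 39 members were higher, against 14.9% of all genes, and 5 were lower, against 15.4%. The enzymes among the 5 were PSAT1, SHMT2 and MTHFD2. Without WT normoxia library 1 or 2, or without a filter on low counts, the members called higher fell to 2, NUPR1 and DNAJB9. The median log2 fold change was 0.16 over the 39 members, 0.21 over the chaperones, 0.38 over the ERAD factors, -0.068 over ATF4 and its targets, and 0.009 over all genes tested. None of the 4 medians over members changed sign under another normalization, filter, tool or left-out library. Both comparisons share the WT normoxia libraries.

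**Figure D1:**
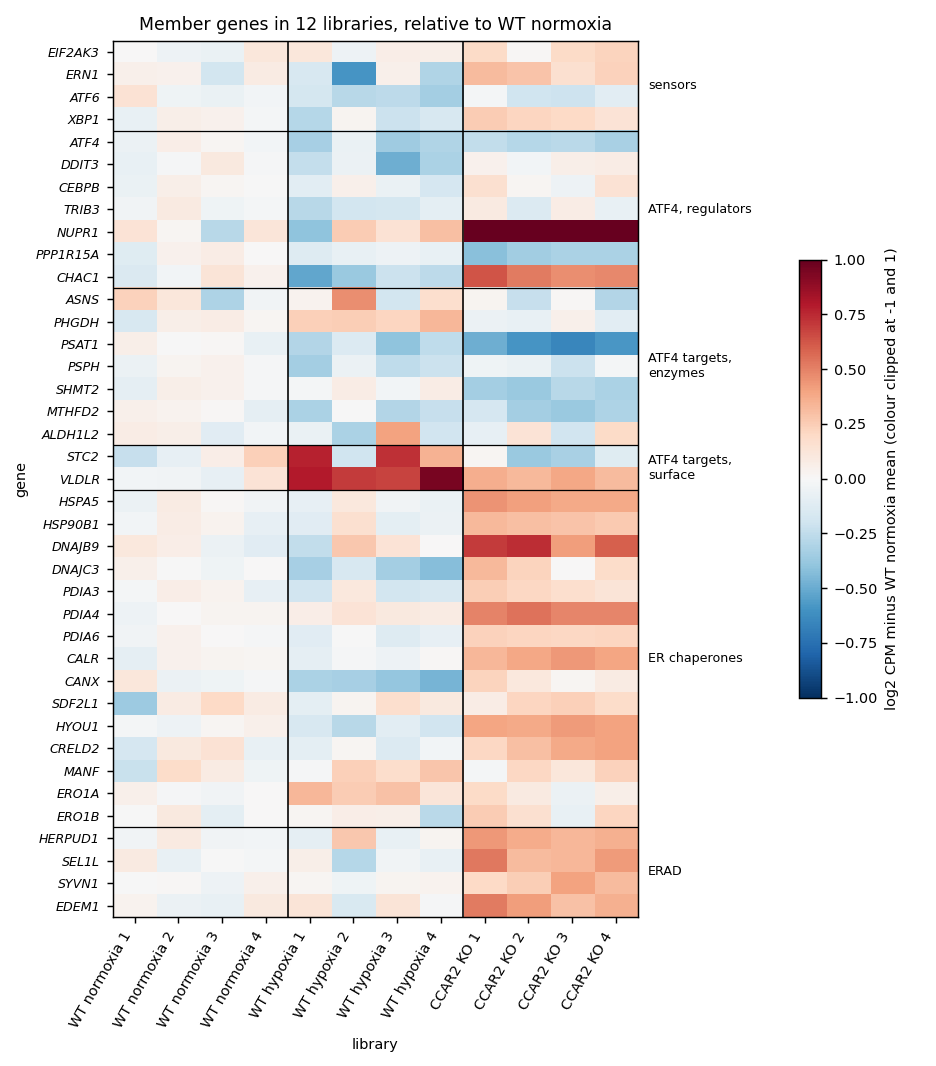
Log2 CPM (after adding 0.01) of the 39 member genes in each of the 12 libraries, as the difference from the WT normoxia mean of the gene, with colours clipped at -1 and 1. Columns are libraries and rows are genes in their classes. In the CCAR2 KO columns the rows of chaperones and ERAD factors are mostly red, ATF4, PPP1R15A, PSAT1, SHMT2 and MTHFD2 are blue, and VLDLR is deepest red in the hypoxia columns.

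**Figure D2:**
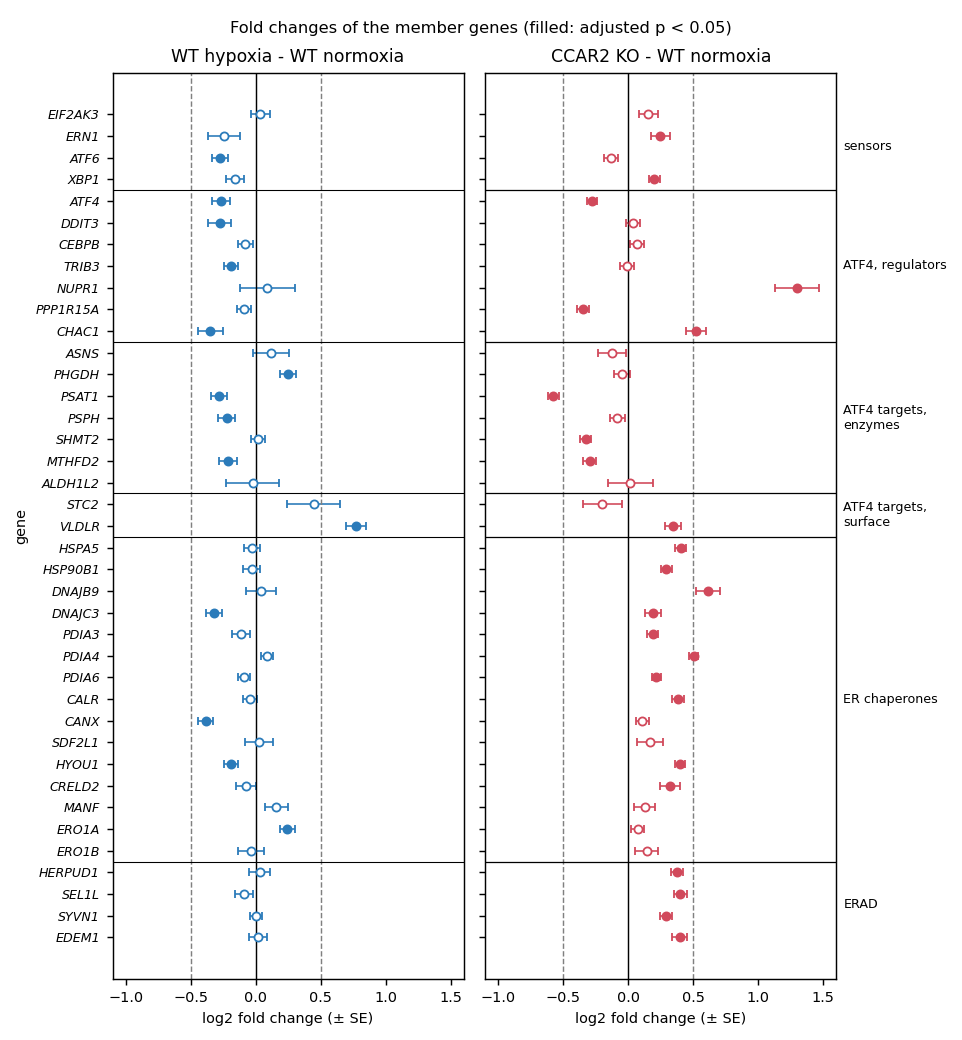
Log2 fold change of each member gene with its SE, for WT hypoxia against WT normoxia on the left and CCAR2 KO against WT normoxia on the right. Filled points have an adjusted p under 0.05 and the dashed lines mark -0.5 and 0.5. All 15 chaperones and all 4 ERAD factors lie right of 0 on the right-hand side, from 0.073 for ERO1A to 0.62 for DNAJB9.

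Of the sensors, ATF6 was lower in WT hypoxia, and ERN1 and XBP1 were higher in CCAR2 KO, all by less than the fold of the call. ATF6 stood at 96.9, 84.9, 83.7 and 85.8 CPM in WT normoxia, at 77.4, 72.2, 73.1 and 69.4 CPM in WT hypoxia and at 86.4, 76.2, 76.1 and 81.4 CPM in CCAR2 KO. All 4 hypoxia libraries lay below all 4 WT normoxia libraries, while CCAR2 KO overlapped WT normoxia, with a log2 fold change of -0.27 (SE 0.06, adjusted p = 0.00755) in hypoxia and a log2 fold change of -0.13 (SE 0.056, adjusted p = 0.0946) in CCAR2 KO. ERN1 stood at 11.9, 11.9, 10.2 and 12.2 CPM in WT normoxia, at 10.3, 7.63, 11.9 and 9.34 CPM in WT hypoxia and at 14.3, 14, 12.9 and 13.5 CPM in CCAR2 KO. The CCAR2 KO libraries were above every WT library and the 2 WT groups overlapped each other, with a log2 fold change of 0.25 (SE 0.074, adjusted p = 0.0255) in CCAR2 KO. XBP1 stood at 70.0, 76.7, 75.9 and 72.7 CPM in WT normoxia, at 60.6, 75.2, 63.7 and 66.2 CPM in WT hypoxia and at 87.8, 85.8, 84.6 and 81.1 CPM in CCAR2 KO. Here too the CCAR2 KO libraries did not overlap either WT group, with a log2 fold change of 0.20 (SE 0.043, adjusted p = 0.00366) against WT normoxia, and hypoxia, whose library 2 lay within the normoxia range, gave a log2 fold change of -0.16 (SE 0.068, adjusted p = 0.118). EIF2AK3 stood at 11.1, 10.7, 10.6 and 12 CPM in WT normoxia, at 12, 10.7, 11.6 and 11.5 CPM in WT hypoxia and at 12.6, 11.1, 12.7 and 12.9 CPM in CCAR2 KO. Its 3 groups overlapped, and neither main comparison passed the test, with adjusted p = 0.78 for hypoxia and 0.133 for CCAR2 KO from edgeR.

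ATF4 mRNA was lower in both WT hypoxia and CCAR2 KO than in WT normoxia, by 17% and 17.7%. ATF4 stood at 357, 389, 376 and 366 CPM in WT normoxia, at 295, 355, 290.1 and 302 CPM in WT hypoxia and at 314, 306, 309 and 296 CPM in CCAR2 KO. No library of either group reached the lowest WT normoxia library, although WT hypoxia library 2 came within 2 CPM of it, and the log2 fold changes were -0.27 ± 0.069 (SE, edgeR adjusted p = 0.0161) in hypoxia and -0.28 ± 0.04 (adjusted p = 0.000203) in CCAR2 KO. The direct comparison of CCAR2 KO with WT hypoxia gave -0.024 ± 0.064 (adjusted p = 0.82). DDIT3, which encodes the pro-apoptotic factor CHOP, was lower in hypoxia only at the adjusted p alone. DDIT3 stood at 21.2, 22.2, 23.9 and 22.2 CPM in WT normoxia, at 18.9, 21.5, 16 and 17.9 CPM in WT hypoxia and at 23, 21.9, 23.3 and 23.5 CPM in CCAR2 KO. Hypoxia library 2 lay inside the WT normoxia range and the CCAR2 KO libraries lay within it, with a log2 fold change of -0.28 (SE 0.088, adjusted p = 0.0408) for hypoxia and a log2 fold change of 0.036 (SE 0.056, adjusted p = 0.69) for CCAR2 KO. DDIT3 shares exon sequence with MARS and MBD6 on the other strand, and whether the counting used strand is not given in the sources used here.

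CHAC1, a glutathione-degrading enzyme and a target of ATF4, moved opposite ways in the 2 comparisons. CHAC1 stood at 7.55, 8.15, 9.1 and 8.57 CPM in WT normoxia, at 5.81, 6.42, 7.15 and 6.93 CPM in WT hypoxia and at 12.9, 11.9, 11.5 and 11.6 CPM in CCAR2 KO. The 3 groups were fully apart, hypoxia lowest and CCAR2 KO highest. It was 1.43 times as high in CCAR2 KO as in WT normoxia (log2 fold change of 0.52, SE 0.079, adjusted p = 0.000342) and 0.785 times as high in hypoxia (log2 fold change of -0.35, SE 0.096, adjusted p = 0.0224). The call in CCAR2 KO was close to the fold of 0.5, since leaving out single libraries gave 0.47 to 0.55 and ended it for WT normoxia libraries 1 and 2 and CCAR2 KO library 1. CHAC1 lies at chr15:40952962-40956519 (ENSG00000128965, plus strand), in the GENCODE v29 annotation of GRCh38, from which the positions below are also taken.

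NUPR1, a small chromatin-associated stress protein, had the largest fold of the members in CCAR2 KO but a very low level. NUPR1 stood at 0.700, 0.647, 0.522 and 0.693 CPM in WT normoxia, at 0.479, 0.759, 0.705 and 0.785 CPM in WT hypoxia and at 1.62, 1.29, 1.53 and 1.84 CPM in CCAR2 KO. The CCAR2 KO libraries were all above both WT groups, which overlapped each other. The log2 fold change of 1.30 (SE 0.17, adjusted p = 0.000114) in CCAR2 KO corresponds to 2.46 times the WT normoxia level and rests on 106 to 126 estimated counts per WT normoxia library and 90 to 242 per CCAR2 KO library. NUPR1 lies at chr16:28532708-28539174 (ENSG00000176046, minus strand). PPP1R15A, the regulatory subunit that directs a phosphatase to eIF2 and so ends the response, was lower in CCAR2 KO at 152 to 163 CPM against 187 to 213 CPM in WT normoxia (log2 fold change of -0.35, SE 0.047, adjusted p = 0.000143), and its hypoxia libraries, at 185 to 195 CPM, overlapped WT normoxia. TRIB3, a pseudokinase that dampens ATF4 signalling, was lower in hypoxia (log2 fold change of -0.19, SE 0.053, adjusted p = 0.0241) and stood at -0.01 ± 0.056 (SE) on the log2 scale in CCAR2 KO. CEBPB, a transcription factor that pairs with ATF4, passed the test in neither comparison (adjusted p = 0.373 and 0.381, edgeR).

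Among the 7 enzymes of amino acid and one-carbon metabolism, PSAT1 fell past the fold of the call in CCAR2 KO, and none rose there. PSAT1 makes phosphoserine in the synthesis of serine. PSAT1 stood at 222, 212, 214 and 202 CPM in WT normoxia, at 173, 193, 160.4 and 178 CPM in WT hypoxia and at 152, 141, 135 and 142 CPM in CCAR2 KO. The groups were apart in every pair, with hypoxia between the other two. CCAR2 KO was 32.9% below WT normoxia (log2 fold change of -0.58, SE 0.044, adjusted p = 1.5e-06), hypoxia 17.6% (log2 fold change of -0.28, SE 0.061, adjusted p = 0.00718), and CCAR2 KO 19.3% below hypoxia (log2 fold change of -0.31, SE 0.061, adjusted p = 0.00221). PSAT1 lies at chr9:78297143-78330093 (ENSG00000135069, plus strand), and its annotated pseudogenes could share reads with it. SHMT2 and MTHFD2, the mitochondrial enzymes that move one-carbon units from serine, were lower in CCAR2 KO too. SHMT2 stood at 427 ± 19 CPM (SD, n = 4) in WT normoxia and 339.9 ± 9.4 CPM in CCAR2 KO (log2 fold change of -0.33, SE 0.043, adjusted p = 0.000105), and at 434 ± 16.9 CPM in hypoxia, where it did not pass the test. SHMT2 shares exon sequence with NDUFA4L2 on the other strand. MTHFD2 stood at 68 ± 2.9, 58.9 ± 6.07 and 55.3 ± 3.55 CPM in WT normoxia, hypoxia and CCAR2 KO. Hypoxia library 2 of MTHFD2, at 67.8 CPM, lay inside the WT normoxia range of 63.8 to 70.3 CPM.

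PHGDH, the first enzyme of serine synthesis, went the other way in hypoxia. It stood at 31.2 to 33.9 CPM in hypoxia and at 24.2 to 28.4 CPM in WT normoxia without overlap (log2 fold change of 0.25, SE 0.062, adjusted p = 0.0151), and at 25 to 27.8 CPM in CCAR2 KO, within the normoxia range. PSPH, which completes serine synthesis, was lower in hypoxia (log2 fold change of -0.22, SE 0.066, adjusted p = 0.0316) with library 2 inside the normoxia range. ASNS, asparagine synthetase and a textbook ATF4 target, varied most among the enzymes with over 1 CPM, from 35.9 to 52.2 CPM within WT normoxia alone, and passed the test in neither comparison. ALDH1L2, the mitochondrial formyltetrahydrofolate dehydrogenase, was under 1 CPM in all libraries. Its SE of 0.18 in CCAR2 KO means that a difference of that size, or one well above it, could have been missed at this depth. Summed over the 7 enzymes, the level was 807 ± 18.6 CPM in WT normoxia, 774 ± 45.6 CPM in hypoxia and 631 ± 13.7 CPM in CCAR2 KO (SD, n = 4).

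VLDLR, a receptor for lipoproteins that takes up lipid and is a target of both ATF4 and hypoxia-inducible factors, was the one member called in hypoxia. VLDLR stood at 15.7, 15.6, 15.1 and 17.5 CPM in WT normoxia, at 27.6, 25.9, 25.5 and 30.8 CPM in WT hypoxia and at 20.5, 20.0, 20.8 and 19.9 CPM in CCAR2 KO. The 3 groups did not overlap, with hypoxia highest and CCAR2 KO between. Hypoxia was 1.71 times WT normoxia (log2 fold change of 0.77, SE 0.076, adjusted p = 8.35e-05) and CCAR2 KO 1.27 times (log2 fold change of 0.35, SE 0.063, adjusted p = 0.00124), and the second was below the fold of the call. Leaving out single libraries left the hypoxia log2 fold change between 0.72 and 0.83. VLDLR lies at chr9:2621834-2660053 (ENSG00000147852, plus strand) and overlaps VLDLR-AS1 on the other strand. STC2, a secreted glycoprotein, is named here after its values were seen, since it was called only between CCAR2 KO and WT hypoxia. STC2 stood at 1.71, 1.9, 2.1 and 2.37 CPM in WT normoxia, at 3.42, 1.74, 3.33 and 2.56 CPM in WT hypoxia and at 2.03, 1.55, 1.6 and 1.84 CPM in CCAR2 KO. In hypoxia libraries 1, 3 and 4 were above all of WT normoxia and library 2 was near its lowest, with a log2 fold change of 0.45 (SE 0.21, adjusted p = 0.147), which became 0.61 (adjusted p = 0.0149) without library 2.

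The 15 chaperones and folding enzymes all had positive log2 fold changes in CCAR2 KO, against 51% of all genes tested. Of these, 10 were higher at the adjusted p alone, against 14.9% of all genes. In hypoxia 5 of 15 were positive, against 51.4% of all genes tested. At the adjusted p alone 1 was higher and 3 were lower there, against 11.6% and 12% of all genes. HSPA5 encodes BiP, the Hsp70 chaperone of the ER whose binding holds the sensors inactive. HSPA5 stood at 850.2, 937, 894 and 867 CPM in WT normoxia, at 836, 954, 867 and 846 CPM in WT hypoxia and at 1211, 1177, 1155 and 1149.6 CPM in CCAR2 KO. CCAR2 KO lay above both WT groups without overlap and the 2 WT groups overlapped. The level was 32.2% higher in CCAR2 KO (log2 fold change of 0.40, SE 0.044, adjusted p = 2.79e-05), and the difference of hypoxia from normoxia was -0.026 ± 0.059 (SE) on the log2 scale, with an adjusted p of 0.803 from edgeR.

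PDIA4 and DNAJB9 were the chaperones called. PDIA4 is a protein disulfide isomerase. PDIA4 stood at 192, 199, 202 and 202 CPM in WT normoxia, at 209, 218, 213 and 210.0 CPM in WT hypoxia and at 280.3, 289, 278 and 279 CPM in CCAR2 KO. All CCAR2 KO libraries were above all WT libraries, and all hypoxia libraries were also above WT normoxia by a smaller step, which did not pass the test (adjusted p = 0.193, edgeR). Its log2 fold change of 0.50 (SE 0.037, adjusted p = 1.05e-06) sat at the edge of the fold threshold, so that DESeq2 (0.49), the fit without a filter (0.48) and leaving out WT normoxia library 1 or 2 or CCAR2 KO library 2 ended the call. DNAJB9, a co-chaperone of BiP that represses IRE1, had the largest fold among the chaperones. DNAJB9 stood at 7.08, 6.89, 6.31 and 6.06 CPM in WT normoxia, at 5.54, 7.92, 7.22 and 6.57 CPM in WT hypoxia and at 10.7, 11, 8.79 and 9.93 CPM in CCAR2 KO. The CCAR2 KO libraries were above all others, 1.53 times WT normoxia (log2 fold change of 0.62, SE 0.091, adjusted p = 0.000278) and 1.48 times hypoxia (log2 fold change of 0.56, SE 0.12, adjusted p = 0.00366). The second call ended without hypoxia library 1, at 0.48. DNAJB9 shares exon sequence with PNPLA8 and THAP5 on the other strand. PDIA4 lies at chr7:149003062-149028641 (ENSG00000155660, minus strand) and DNAJB9 at chr7:108569568-108574850 (ENSG00000128590, plus strand).

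HYOU1, a large Hsp70-like nucleotide exchange factor of BiP, is given in full after its values were seen, as it was called only in the direct comparison. HYOU1 stood at 167, 163, 171 and 175 CPM in WT normoxia, at 152, 139.7, 157 and 148 CPM in WT hypoxia and at 223, 219, 226 and 223 CPM in CCAR2 KO. Hypoxia was below and CCAR2 KO above every WT normoxia library. The log2 fold changes were -0.19 ± 0.051 in hypoxia, 0.40 ± 0.037 in CCAR2 KO and 0.58 ± 0.047 between CCAR2 KO and hypoxia (SE, edgeR adjusted p = 0.0213, 6.54e-06 and 3.68e-06). Others that were higher in CCAR2 KO without overlap were CALR at 1264 ± 36.4 CPM against 968 ± 39.4 CPM in WT normoxia (0.38 ± 0.045 on the log2 scale), HSP90B1, the Hsp90 of the ER, at 906 ± 15.8 against 739.6 ± 35.7 CPM (0.29 ± 0.044), and the disulfide isomerases PDIA3 and PDIA6. CRELD2, a secreted disulfide isomerase, was higher by 0.32 ± 0.077. DNAJC3, an inhibitor of PERK that works with BiP, passed the adjusted p in both comparisons with opposite signs, -0.32 ± 0.062 in hypoxia and 0.19 ± 0.061 in CCAR2 KO, and its CCAR2 KO range of 54.7 to 68.3 CPM overlapped WT normoxia at 53 to 56.5 CPM.

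CANX, the membrane-bound lectin chaperone that retains glycoproteins, was the chaperone with the lowest fold in hypoxia. CANX stood at 551, 491, 494 and 506 CPM in WT normoxia, at 409, 404, 390.1 and 369.9 CPM in WT hypoxia and at 594, 549.6, 518 and 540.5 CPM in CCAR2 KO. Hypoxia was below every other library (log2 fold change of -0.38, SE 0.057, adjusted p = 0.000962), and CCAR2 KO overlapped WT normoxia. ERO1A, the oxidase that drives disulfide formation and a known hypoxia target, was the chaperone class member higher in hypoxia, at 187 to 217 CPM against 168 to 178 CPM without overlap (log2 fold change of 0.24, SE 0.056, adjusted p = 0.00948). Its paralog ERO1B, at 7.57 to 8.66 CPM in WT normoxia, passed the test in neither comparison, and neither did SDF2L1 nor MANF, which both bind BiP and whose WT normoxia libraries ranged over 21.1 to 31.3 and 46.7 to 62 CPM. Summed over the 15 genes, the level was 4336 ± 99.9 CPM in WT normoxia, 4164 ± 176 CPM in hypoxia and 5373 ± 63.6 CPM in CCAR2 KO (SD, n = 4). The sums of the CCAR2 KO libraries, 5316 to 5453 CPM, did not overlap those of WT normoxia, 4238 to 4456 CPM.

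None of the 4 ERAD factors passed the adjusted p in hypoxia, where 11.6% of all genes tested were higher and 12% lower. In CCAR2 KO all 4 were higher at the adjusted p alone, against 14.9% of all genes tested. HERPUD1, which gathers the ERAD complex at the membrane, stood at 53.1 to 57.1 CPM against 41.2 to 45 CPM in WT normoxia (log2 fold change of 0.37, SE 0.046, adjusted p = 7.14e-05). SEL1L, the adaptor of the ubiquitin ligase, rose by 0.40 ± 0.053 on the log2 scale, SYVN1, the ligase itself, by 0.29 ± 0.047, and EDEM1, a mannosidase-like protein that marks glycoproteins for removal, by 0.40 ± 0.057 (SE). None of the 4 overlapped WT normoxia, and the share of all genes without overlap was not computed. In hypoxia their log2 fold changes lay between -0.088 and 0.03 and between CCAR2 KO and hypoxia from 0.28 to 0.48. SYVN1 shares exon sequence with FAU on the same strand.

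The direct comparison of CCAR2 KO with WT hypoxia tested whether the 2 conditions differed, and shares libraries with both comparisons above. NUPR1, CHAC1, DNAJB9 and HYOU1 were called higher in CCAR2 KO, against 7.08% of all 21158 genes tested, and STC2 was called lower, against 7.88%. At the adjusted p alone 20 members were higher and 7 lower, against 17.1% and 17.8% of all genes. The 7 lower members were PPP1R15A, PHGDH, PSAT1, SHMT2, STC2, VLDLR and ERO1A. Of the 15 chaperones 11 were higher, with a median of 0.38, and of the 4 ERAD factors all were. The call of STC2 (log2 fold change of -0.66, SE 0.21, adjusted p = 0.0277) ended when any of 5 of the 8 libraries was left out, and without CCAR2 KO library 3 the number called higher was 8 in place of 4.

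Beside the promoters shown above, the 11 members that hold an ERSE or ERSE-II had a median log2 fold change of 0.29 in CCAR2 KO, from 0.11 for CANX to 0.40 for HSPA5. Of these 11, 8 were higher at the adjusted p alone, against 14.9% of all genes tested. In hypoxia the median of the 11 was -0.042. The 5 chaperones with a window but without either motif, which include PDIA4 and DNAJB9, had a median of 0.19 in CCAR2 KO, against 0.29 for the 9 with one. At the adjusted p alone 3 of these 5 were higher in CCAR2 KO, and 6 of the 9 with a motif. The order of the medians turned in hypoxia, at 0.088 against -0.042, and between CCAR2 KO and hypoxia, at 0.40 against 0.38. Of the 3 members with a CARE, CHAC1 was called higher in CCAR2 KO, HERPUD1 was higher at the adjusted p alone and ASNS passed in neither comparison. These are descriptions of a few genes each and were not tested.

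The other genes of these pathways, 121 genes on 8 lists, were read in the same fits. In hypoxia 4 of 119 tested were called higher and 2 lower, and 7 and 38 at the adjusted p alone, with a median log2 fold change of -0.12. Over all genes tested there, 5.83% were called higher and 1.43% lower, and 11.6% and 12% at the adjusted p alone. In CCAR2 KO 3 were called higher and 3 lower, and 22 and 38 at the adjusted p alone, with a median of -0.038, where the shares of all genes were 6.73% and 2.94%, and 14.9% and 15.4%. Of 20 further ATF4-responsive genes tested, 7 were higher and 6 lower in CCAR2 KO at the adjusted p alone, with a median of -0.027. In hypoxia 2 of the 20 were higher and 9 lower, with a median of -0.12. Among them DDIT4, an inhibitor of mTORC1 and itself a hypoxia target, was the one called higher in hypoxia (log2 fold change of 1.52, SE 0.084, adjusted p = 1.59e-06). SLC7A11, the cystine transporter, was lower there (log2 fold change of -0.80, SE 0.072, adjusted p = 4.97e-05), and so was GDF15, a secreted stress cytokine, with overlapping groups (log2 fold change of -0.53, SE 0.15, adjusted p = 0.0228). GDF15 was instead higher in CCAR2 KO (log2 fold change of 1.25, SE 0.10, adjusted p = 2.5e-06). GDF15 stood at 3.87, 5.06, 5.27 and 5.22 CPM in WT normoxia, at 3.93, 2.88, 3.79 and 2.98 CPM in WT hypoxia and at 11.7, 11.1, 11.3 and 12.1 CPM in CCAR2 KO, so that CCAR2 KO lay above all WT libraries. SLC6A9, a glycine transporter, was also called higher in CCAR2 KO (log2 fold change of 0.88, SE 0.12, adjusted p = 0.000163), and so was DDIT4, added here after its values were seen (log2 fold change of 0.58, SE 0.079, adjusted p = 0.000151). The lower call of GDF15 in hypoxia ended when any of 5 of the 8 libraries was left out, WT normoxia library 2, 3 or 4 or hypoxia library 2 or 4, with adjusted p up to 0.0704 from edgeR.

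Of the 20 cytosolic aminoacyl-tRNA synthetases, which load amino acids onto tRNAs and many of which ATF4 is known to raise, none was called. At the adjusted p alone 11 were lower and none higher in CCAR2 KO, and 4 were lower and none higher in hypoxia. Of 13 further enzymes of serine, proline and one-carbon metabolism, 10 were lower and 1 higher in CCAR2 KO, with PYCR1, which makes proline, called lower (log2 fold change of -0.65, SE 0.052, adjusted p = 2.14e-06), and 2 lower and 1 higher in hypoxia, with ALDH1L1, the cytosolic counterpart of ALDH1L2, called higher (log2 fold change of 0.97, SE 0.26, adjusted p = 0.0211). The level of ALDH1L1 was very low, at 0.268 to 0.478 CPM in WT normoxia and 0.517 to 0.957 CPM in hypoxia. A further list of 11 genes held eIF2 kinases, phosphatase subunits, subunits of eIF2B and EIF2S1, a subunit of eIF2 itself. Of these 11, 3 were lower in CCAR2 KO and 5 in hypoxia at the adjusted p alone, and none was higher. Of all genes tested, 15.4% were lower in CCAR2 KO and 12% in hypoxia by the same rule, and 14.9% and 11.6% higher.

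The next counts are again at the adjusted p alone, by which 14.9% of all genes tested were higher and 15.4% lower in CCAR2 KO, and 11.6% and 12% in hypoxia. Of 17 further ER folding factors, 6 were higher and 1 lower in CCAR2 KO and 2 and 5 in hypoxia, where CRELD1 was called higher (log2 fold change of 0.52, SE 0.066, adjusted p = 0.000401). Of 15 further ERAD factors, 2 were higher and 2 lower in CCAR2 KO, where UBE2J1, an ER ubiquitin-conjugating enzyme, was called lower (log2 fold change of -0.51, SE 0.049, adjusted p = 9.55e-06), and 1 and 5 in hypoxia. Of 17 factors by which proteins enter the ER, 2 were higher and 5 lower in CCAR2 KO, where SSR3, a subunit of the translocon-associated complex, was called lower (log2 fold change of -0.66, SE 0.055, adjusted p = 2.71e-06), and 1 and 6 in hypoxia, where SEC61G, a subunit of the Sec61 channel, was called higher (log2 fold change of 0.73, SE 0.17, adjusted p = 0.0109), at 0.51 without hypoxia library 2. Single libraries decided the calls of CRELD1, which ended without WT normoxia library 1, of UBE2J1, without WT normoxia library 1 or CCAR2 KO library 3, and of ALDH1L1 above, without WT normoxia library 2 or 4 or hypoxia library 4. Of the 6 relatives of ATF6 and the proteases that cut them, 4 were higher and none lower in CCAR2 KO, and 2 were lower and none higher in hypoxia, all at the adjusted p alone.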

How the data were processed

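The deposited table holds estimated counts per gene, made by the authors from paired-end reads that, per the paper's methods, were aligned with Hisat2 and quantified with StringTie, while the submitters' processing notes name HISAT2, SAMtools and featureCounts. The values are whole numbers, not scaled to library size, and the genome build, the annotation and the use of strand are not given in the sources used here. Sums per library are in the report.

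The 8 libraries of the 2 groups compared were fitted over all genes at once with edgeR 4.0.16 in R 4.3.3 (filterByExpr, TMM, glmQLFit, glmQLFTest, Benjamini-Hochberg). CPM used TMM sizes of all 12 libraries. CPM per kb used the union of exons in GENCODE v29 (GRCh38), which held 58396 of the 60664 gene identifiers. Promoter windows came from RefSeq on GRCh38.p14. Alternatives were DESeq2 1.42.0, limma-voom (3.58.1), other normalizations and filters, all 12 libraries in one fit, other thresholds, a replicate block and each library left out.

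The members, the lists and the tests were chosen with earlier results of these data known. Values in every library are given for members called against WT normoxia without overlap, for EIF2AK3, ERN1, ATF6, ATF4, DDIT3, XBP1 and HSPA5, and for STC2, HYOU1, CANX and GDF15, which were added after their values were seen. Of each other list, up to 2 called genes with the highest and 2 with the lowest fold in each main comparison are named. CBS and FGF21 of the other lists did not pass the filter.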

Additional observations from a re-analysis of the deposited data

Results flagged for a closer look

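Of 156 groups of 4 libraries, over 52 genes, 10 had 1 library whose gap to the nearest of the other 3 as a share of the group's range was past the 95% value of Dixon's test. Chance alone flags about 5% of groups, or 7.8 here. EIF2AK3 in CCAR2 KO library 2 stood at 11.1 CPM, below the other 3 at 12.6 to 12.9 CPM, a gap of 0.835 of the range. ERN1 in WT normoxia library 3 stood at 10.2 CPM, below the other 3 at 11.9 to 12.2 CPM, a gap of 0.834 of the range. ATF6 in WT normoxia library 1 stood at 96.9 CPM, above the other 3 at 83.7 to 85.8 CPM, a gap of 0.837 of the range. TRIB3 in WT normoxia library 2 stood at 57.6 CPM, above the other 3 at 52.6 to 53.3 CPM, a gap of 0.865 of the range. PDIA3 in WT hypoxia library 2 stood at 299 CPM, above the other 3 at 244 to 249.7 CPM, a gap of 0.901 of the range. ERO1B in WT hypoxia library 4 stood at 6.71 CPM, below the other 3 at 8.23 to 8.49 CPM, a gap of 0.856 of the range. HERPUD1 in WT normoxia library 2 stood at 45 CPM, above the other 3 at 41.2 to 41.4 CPM, a gap of 0.931 of the range. GDF15 in WT normoxia library 1 stood at 3.87 CPM, below the other 3 at 5.06 to 5.27 CPM, a gap of 0.846 of the range. SLC7A11 in WT normoxia library 1 stood at 108 CPM, above the other 3 at 87.2 to 90.3 CPM, a gap of 0.85 of the range. SSR3 in WT hypoxia library 2 stood at 522 CPM, above the other 3 at 429 to 443 CPM, a gap of 0.854 of the range.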

How the results depend on the processing

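The fold threshold decided the counts of calls. At the adjusted p alone, 3 members were higher and 11 lower in hypoxia, 19 and 5 in CCAR2 KO, and 20 and 7 between CCAR2 KO and hypoxia. At a log2 fold of at least 1 these counts were 0 and 0, 1 and 0, and 1 and 0, and the gene that remained in the last 2 comparisons was NUPR1. By that rule 440 of all 21776 genes tested were higher and 47 lower in hypoxia. The numbers were 604 and 171 of 21410 in CCAR2 KO, and 582 and 637 of 21158 between CCAR2 KO and hypoxia. Without a filter on low counts, 2 members were called higher in CCAR2 KO in place of 4, as CHAC1 and PDIA4 fell just under the fold. With upper-quartile normalization, 6 members in place of 11 were lower in hypoxia at the adjusted p alone, while the median of all genes moved from 0.011 to 0.063. The other counts stayed within 1.5 times of the main count with RLE or upper-quartile normalization, a minimum of 10 counts in every library, DESeq2, limma-voom and all 12 libraries in one fit. With each library left out in turn, the members called in hypoxia numbered 1 to 2 higher and, in every case, 0 lower, with 2 to 4 and 5 to 14 at the adjusted p alone. The lowest of the last range came without WT normoxia library 2 or 4 or hypoxia library 1. In CCAR2 KO the counts were 2 to 4 and 1 in every case, with 17 to 20 and 5 to 6, and between CCAR2 KO and hypoxia 4 to 8 and 0 to 1, with 19 to 21 and 5 to 7. Under none of these alternatives did a called member change sign.

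Replicate numbers were not taken as pairs, since the correlations of same-numbered libraries after removal of group means lay between -0.0249 and 0.0651. With the replicate number as a block, the members called numbered 1 higher and 0 lower in hypoxia, 4 and 1 in CCAR2 KO and 4 and 1 between CCAR2 KO and hypoxia, and at the adjusted p alone 3 and 12, 20 and 6, and 20 and 7.

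The count of 0 members called lower in hypoxia comes from edgeR, and DESeq2 and limma-voom also gave 0. At an unadjusted p under 0.05, 12 members had a lower level there and 3 a higher one. Of all 21776 genes tested, 3958 were lower and 3721 higher by the same rule. Of the 39 members, 18 share exon sequence with a gene on the other strand and 4 with one on the same strand, and 7 have annotated pseudogenes (ASNS, ATF4, MTHFD2, PDIA3, PSAT1, PSPH and XBP1), so reads of these could have been split or shared. Protein, translation, XBP1 splicing and eIF2 phosphorylation were not analysed here.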

Other observations

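The windows of 33 genes that are no members also held an ERSE or ERSE-II by the same letters, a set chosen by sequence after the members' values were seen. Of these, 19 passed the filter in CCAR2 KO against WT normoxia. At the adjusted p alone 5 of them were higher and 6 lower in CCAR2 KO, with a median log2 fold change of -0.013, where the 11 members with such a match had 8 higher, none lower and a median of 0.29. Of all genes tested, 14.9% were higher and 15.4% lower in CCAR2 KO by the same rule. In hypoxia 4 of the 19 tested were higher and 4 lower, with a median of 0.012. The difference between the 2 sets was not tested.

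Over these 39 genes the median coefficient of variation of CPM between libraries of a group was 4.83% in WT normoxia, 8.36% in WT hypoxia and 5.78% in CCAR2 KO, and the highest values were those of SDF2L1 (16%), STC2 (28.4%) and NUPR1 (14.6%). The sum over all 39 members was 6345 ± 137 CPM in WT normoxia, 6039 ± 244 CPM in WT hypoxia and 7192 ± 89.5 CPM in CCAR2 KO (SD, n = 4), and the chaperones made up most of it.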
